A study of Homo sapiens with 24 samples.

Results

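Whether siRNA against TAOK2 altered how RNAs divide between nucleus and cytoplasm was measured in 8 of the 24 libraries of the series. They are the nuclear and cytoplasmic libraries of the fractionation experiment in A549, a human lung adenocarcinoma line whose genotype is given as wild type. The 4 groups compared were TAOK2 siRNA nuclear, control siRNA nuclear, TAOK2 siRNA cytoplasmic and control siRNA cytoplasmic, with 2 libraries each, one from batch 1 and one from batch 2. Cells were reverse transfected at 30 nM with either a TAOK2 siRNA pool or a control siRNA pool, and polyadenylated RNA was read as 150 bp pairs. The sources used here do not give how fractions were prepared, how long the siRNA acted or what a batch is. The deposited unit is TPM, a transcript abundance per length scaled to a fixed total, which keeps no read number, so depth is unknown beyond the minimum read number stated in the labels. TPM was rescaled without the mitochondrially encoded genes and summed over the transcripts of a gene. The ratio of a gene is log2(TPM + 1) in nuclear RNA minus the same in cytoplasmic RNA, and the shift is the ratio with TAOK2 siRNA minus the ratio with control siRNA, taken within a batch. A negative shift is a lower nuclear to cytoplasmic ratio of TPM after knockdown. Since TPM is a share within each library, the sign alone does not show that an RNA moved. The 14403 genes and 53228 transcripts that averaged 1 TPM or more across the 12 fractionation libraries, total RNA included, were tested.

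A messenger RNA is normally spliced and capped in the nucleus and then exported, whereas RNAs that keep an intron tend to stay in the nucleus, where they are spliced later or degraded. Nuclear speckles are bodies rich in splicing factors, among them the SR proteins, whose RS domains are phosphorylated by kinases. TAOK2 is a serine/threonine kinase of the TAO family, upstream of p38 and JNK signalling, and the series title places it at nuclear speckles.

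TAOK2 RNA (ENSG00000149930, forward strand of chromosome 16 at 29973641 to 29992261, GRCh38) was lower with its siRNA in both fractions and both batches. Nuclear RNA held 16.4 and 9.83 TPM with TAOK2 siRNA in batches 1 and 2, against 27.1 and 15.0 TPM with control siRNA. Cytoplasmic RNA held 2.75 and 0.792 TPM with TAOK2 siRNA, against 8.87 and 3.78 TPM with control siRNA. In each batch the knockdown library was the lower one, although nuclear TAOK2 of batch 1 after knockdown exceeded the batch 2 control. The log2 difference was -0.63 ± 0.52 in the nucleus and -1.41 ± 0.52 in the cytoplasm (SE), and neither passed the limma test (adjusted p = 0.734 and 0.515). The shift of TAOK2 RNA was 0.70 in batch 1 and 0.85 in batch 2 (0.78 ± 0.74, adjusted p = 1 by limma). It was 0.21 at a pseudocount of 5 TPM, and between 0.24 without the TAOK2 siRNA cytoplasmic library of batch 2 and 1.31 without that of batch 1, so its size depended on single libraries at low levels. The paralogs TAOK1 and TAOK3 had shifts of 0.26 ± 0.30 and 0.26 ± 0.28, positive in both batches and not past the test.

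Libraries differed in ways beside the siRNA. Mitochondrially encoded RNA made up 40.9% and 36.5% of deposited TPM in TAOK2 siRNA nuclei and 42.5% and 37.9% in control nuclei, and 12.6% and 8.10% in TAOK2 siRNA cytoplasm and 13.9% and 10.8% in control cytoplasm. In total RNA it made up 7.13% and 5.06% with TAOK2 siRNA and 6.63% and 4.34% with control siRNA, below both fractions. This RNA sits outside the nucleus, so the nuclear libraries also held RNA from outside it. How far that bears on the ratio as a measure of location was not tested. Of 8 epithelial markers of the line, 7 were tested, with a summed level of 3356 to 10445 TPM over the 8 libraries. Leukocyte, fibroblast and endothelial markers had 4, 4 and 3 of 8 tested, with sums of 23.0 to 56.3, 23.7 to 56.8 and 1.25 to 19.1 TPM. Among the fibroblast markers LUM, a matrix proteoglycan, held 39.3 to 47.7 TPM with TAOK2 siRNA and 10.9 to 18.8 TPM with control siRNA. COL1A1, a collagen chain, ran the other way in the nucleus, at 8.21 and 8.16 TPM with TAOK2 siRNA and 11.04 and 12.4 TPM with control siRNA, the proteoglycan gene DCN held at most 4.34 TPM in every nuclear or cytoplasmic library, and CD3E of the leukocyte list was at 0 in all 12 libraries. The usual nuclear RNAs MALAT1 and NEAT1 were not analysed here.

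No gene changed its ratio past the test: 0 of 14403 genes, or 0%, had a limma adjusted p under 0.05, and the smallest adjusted p was 0.664. An unadjusted p under 0.05 was reached by 270 genes, 1.87% of those tested. The median absolute shift of a gene was 0.21, smaller than its median standard error of 0.37. That error comes from the fit without a batch block, so it includes differences between batches. A shift taken within a batch does not contain these, so the 2 values do not show that shifts lie below the noise. In data simulated on the same genes, the test found 54% of shifts of -2, 52% of shifts of 2, 8% of shifts of -1 and 16% of shifts of 1. The simulated libraries had independent noise and no batch difference, unlike the libraries here, so these percentages may not carry over. With batch as a block the count stayed at 0, with 1000 genes at an unadjusted p under 0.05, and with a block within each fraction 1 gene passed, an unnamed locus, with 1565 genes (10.9%) at an unadjusted p under 0.05. The shifts of the 2 batches share no library, and across genes they had a Spearman rho of 0.163. In both batches 3990 genes (27.7%) were lower and 4191 genes (29.1%) were higher. The control ratio itself was far more alike between batches, with rho = 0.936 across the same genes.

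Within single fractions few genes passed. In nuclear RNA 7 of 14403 genes (0.0486%) did, 4 higher and 3 lower after knockdown, and in cytoplasmic RNA 11 (0.0764%), 6 higher and 5 lower. With batch as a block these counts were 430 higher and 840 lower in the nucleus and 190 higher and 258 lower in the cytoplasm. STC1, a secreted glycoprotein hormone, EMP1, an epithelial membrane protein, ACAT2, an acetyl-CoA acetyltransferase, and LUM rose in both fractions. EMP1 held 16.4 and 19.3 TPM in TAOK2 siRNA nuclei, against 3.61 and 3.59 TPM in control nuclei (2.03 ± 0.21, adjusted p = 0.0226 by limma), and its cytoplasmic change was 1.75 ± 0.21. The shift of EMP1, 0.28 ± 0.30, and that of STC1, -0.06 ± 0.20, were no larger than their errors. FGFR1, a receptor tyrosine kinase for fibroblast growth factors, fell in the nucleus to 494 and 499 TPM with TAOK2 siRNA, against 1109 and 1136 TPM with control siRNA (-1.17 ± 0.14, adjusted p = 0.0383 by limma). Its cytoplasmic level was 61.0 and 60.9 TPM with TAOK2 siRNA and 92.4 and 79.2 TPM with control siRNA (-0.48 ± 0.14, adjusted p = 0.368). The cytoplasmic falls included ASNS, asparagine synthetase, at 73.6 and 66.7 TPM with TAOK2 siRNA, against 200.003 and 239.97 TPM with control siRNA, and TXNIP, the thioredoxin-interacting protein, at 27.9 and 26.6 TPM against 60.5 and 61.5 TPM. Fitted to the 8 nuclear and cytoplasmic libraries alone, 0 genes passed in either fraction, with 1555 nuclear and 1000 cytoplasmic genes at an unadjusted p under 0.05 by limma, and without 1 library at a time the counts were 0 to 6 in the nucleus and 0 to 1 in the cytoplasm.

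The 12 genes named here as a description had the lowest unadjusted p among negative shifts that met 3 conditions. These were a mean of at least 5 TPM, 1 sign in both batches and no clone name. Genes outside these conditions reached a lower p. UBE2Q2P1, a pseudogene of an ubiquitin-conjugating enzyme, held 12.7 and 13.4 TPM in TAOK2 siRNA nuclei against 24.3 and 32.3 TPM in control nuclei, and 2.90 and 2.92 TPM in TAOK2 siRNA cytoplasm against 2.42 and 1.59 TPM in control cytoplasm. Its groups did not overlap in either fraction, and its shift was -1.44 ± 0.31 (unadjusted p = 0.00140, limma). CCDC162P, a unitary pseudogene, held 26.2 and 28.5 TPM in TAOK2 siRNA nuclei and 63.8 and 76.1 TPM in control nuclei, with a shift of -1.05 ± 0.24. Reads of UBE2Q2P1 can be shared with closely similar genes, so its level is uncertain, as are those of the unprocessed pseudogenes PDXDC2P (-0.94 ± 0.26) and STAG3L1 (-1.06 ± 0.32).

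Among protein-coding genes ANKRD29, an ankyrin repeat gene, held 6.92 and 7.91 TPM in TAOK2 siRNA nuclei and 22.0 and 23.8 TPM in control nuclei, with a shift of -1.01 ± 0.24. TMEM178A, a membrane protein of calcium signalling, held 16.9 and 23.4 TPM in TAOK2 siRNA nuclei and 56.7 and 74.8 TPM in control nuclei, with a cytoplasmic level of at most 1.09 TPM in every library (-1.50 ± 0.42). The leukotriene receptor gene LTB4R2 (-1.03 ± 0.25) and FGFR1 (-0.69 ± 0.19) also had a lower nuclear level and a strongly nuclear control ratio of 4.06 and 3.70. In the cytoplasm LTB4R2 held only 0.116 and 0.104 TPM with TAOK2 siRNA and 0.170 and 0.323 TPM with control siRNA. For LTB4R2 and TMEM178A the cytoplasmic level was near or under the 1 TPM added before the log. Their shifts therefore reflect mostly the nuclear level, unlike that of FGFR1. ADI1, an enzyme of methionine salvage, differed in both fractions, at 46.3 and 44.8 TPM in TAOK2 siRNA nuclei against 56.0 and 55.1 TPM in control nuclei, and at 51.3 and 50.7 TPM in TAOK2 siRNA cytoplasm against 39.2 and 40.3 TPM in control cytoplasm (-0.63 ± 0.16). CLN8, a membrane protein of the endoplasmic reticulum (-1.33 ± 0.31), LETM2 (-0.98 ± 0.27) and the readthrough locus COMMD3-BMI1 (-2.14 ± 0.56) complete the 12, and none of them passed the adjusted test.

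A further 12 genes had the lowest unadjusted p among positive shifts under the same conditions. MRPS18C, a protein of the small mitochondrial ribosomal subunit, held 35.0 and 39.9 TPM in TAOK2 siRNA nuclei and 37.1 and 32.6 TPM in control nuclei, and 48.5 and 54.8 TPM in TAOK2 siRNA cytoplasm and 74.0 and 74.6 TPM in control cytoplasm (0.62 ± 0.19, unadjusted p = 0.0116, limma). Only its cytoplasmic groups were apart. BFAR, an apoptosis regulator, had a shift of 0.58 ± 0.19 and PFDN6, a prefoldin subunit, 0.66 ± 0.22. The glycolytic enzyme gene GAPDH held 5483 and 5631 TPM in TAOK2 siRNA nuclei and 3266 and 3420.3 TPM in control nuclei, and 6274 and 5707 TPM in TAOK2 siRNA cytoplasm and 4776 and 5129 TPM in control cytoplasm (0.46 ± 0.17). It was higher in both fractions, more so in the nucleus. The remaining genes of the 12 were the ferritin pseudogene FTH1P15, the RNA regulator MARF1, LUM, the Rab regulator GDI2, the translation initiation subunit EIF3M, ERH, the ribosome assembly factor WDR12 and the coagulation factor gene F5, with shifts of 0.46 to 1.65, none past the adjusted test.

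The shift followed the ratio that a gene had in control cells. RNAs that were nuclear in control cells had mostly negative shifts, and cytoplasmic RNAs mostly positive ones, in both batches. Because a shift and the control ratio of its own batch share the control libraries, genes were ordered by the control ratio of the other batch and divided into 10 equal groups. In the most nuclear group, with a control ratio above 2.47 in batch 2, the median shift of batch 1 was -0.38, and 81.9% of 1441 genes were lower. In the most nuclear group by batch 1, the median shift of batch 2 was -0.33, and 74.8% of genes were lower. In the most cytoplasmic group the median shift was 0.22 in batch 1 and 0.11 in batch 2, with 26.4% and 32.7% of genes lower. Between these ends the medians descended from group to group without exception in either batch.

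**Figure D1:**
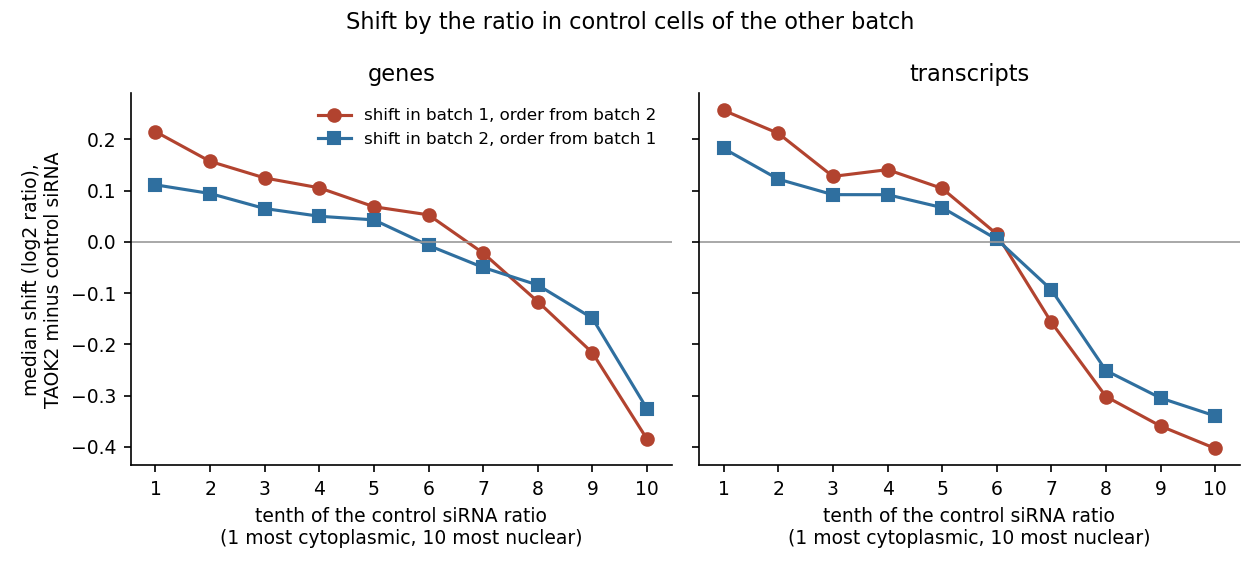
Median shift of the log2 nuclear to cytoplasmic ratio (vertical axis) in 10 equal groups of genes (left) and transcripts (right), ordered from the most cytoplasmic to the most nuclear in control cells of the other batch (horizontal axis). Circles give batch 1 and squares batch 2. Both lines run from above 0 to below 0, to -0.38 and -0.33 for the most nuclear genes.

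Across the 14403 genes the Spearman rho of the shift with the control ratio of the other batch was -0.354 in batch 1 and -0.288 in batch 2, and across transcripts -0.315 and -0.284. These are descriptions over genes of the same libraries, which are not independent. The relation was present at all levels of expression, with rho of -0.321 and -0.287 in the lowest 4373 protein-coding genes by mean TPM and -0.228 and -0.287 in the highest 4373. The spread of the ratio across genes was smaller after knockdown, with a standard deviation of 1.14 with TAOK2 siRNA against 1.22 with control siRNA in batch 1, and 1.13 against 1.25 in batch 2. Set against the control ratio of the other batch, the slope was 0.778 for TAOK2 siRNA and 0.909 for control siRNA in batch 1, and 0.844 and 0.952 in batch 2.

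Most of the difference was on the nuclear side. In the most nuclear group the median nuclear change was -0.51 in batch 1 and -0.44 in batch 2, while the median cytoplasmic change was -0.11 and -0.08. The 1 TPM added before the log understates cytoplasmic changes of RNAs near or under that level. In the most cytoplasmic group the nuclear change was 0.12 and 0.13 and the cytoplasmic change -0.09 and 0. Beside this, the 78 mRNAs of cytosolic ribosomal proteins, which are mostly cytoplasmic, summed to 74828 and 79056 TPM in TAOK2 siRNA nuclei and 67676 and 68390 TPM in control nuclei, and to 232242 and 224957 TPM in TAOK2 siRNA cytoplasm and 227314 and 227588 TPM in control cytoplasm. The 4 housekeeping mRNAs GAPDH, ACTB, TUBA1B and EEF1A1 summed to 13700.2 and 13234 TPM in TAOK2 siRNA nuclei and 10126 and 9934 TPM in control nuclei. The part of these cytoplasmic mRNAs in the shift was not tested. Since TPM is a share, a lower share of one RNA class in the nucleus and higher shares of the others cannot be told apart.

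Transcripts that the annotation classes as retaining an intron had a lower share of nuclear RNA after knockdown. They made up 12.4% and 12.6% of TPM in TAOK2 siRNA nuclei of batches 1 and 2, against 15.4% and 15.7% in control nuclei. In the cytoplasm the shares were 4.22% and 3.84% with TAOK2 siRNA and 4.56% and 4.02% with control siRNA, and in total RNA 6.74% and 5.85% against 6.85% and 5.63%. The nuclear groups did not overlap, and the cytoplasmic and total groups did. Within batches the cytoplasmic share was lower after knockdown as well, with differences of -0.340 points in batch 1 and -0.179 in batch 2, against -2.98 and -3.09 points in the nucleus, while total RNA differed in sign at -0.118 and 0.224 points. The nuclear mean was 12.5% ± 0.137 with TAOK2 siRNA and 15.6% ± 0.214 with control siRNA (SD, n = 2 each; two-sided exact permutation p = 0.333, the smallest that 2 against 2 allows). Processed transcripts, spliced RNAs with no annotated reading frame, held 7.94% and 8.86% in TAOK2 siRNA nuclei and 9.72% and 11.1% in control nuclei, and 3.67% and 3.47% in TAOK2 siRNA cytoplasm and 4.31% and 3.77% in control cytoplasm. Their groups overlapped in neither fraction. Protein-coding transcripts held 71.1% and 70.2% in TAOK2 siRNA nuclei and 65.7% and 64.2% in control nuclei.

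**Figure D2:**
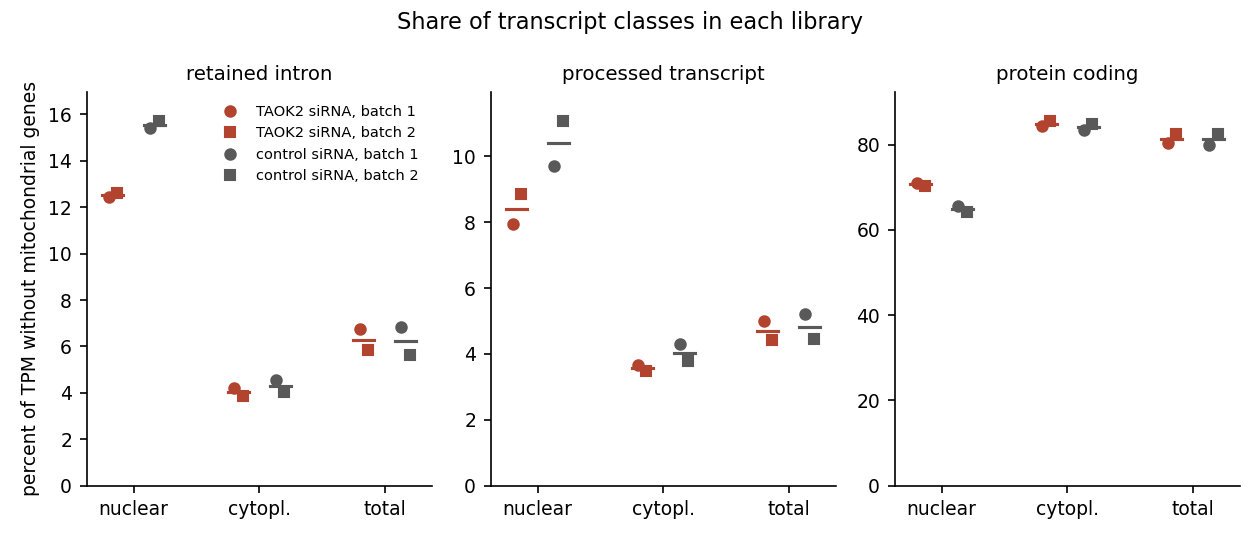
Share of TPM, without mitochondrial genes, held by retained-intron, processed and protein-coding transcripts (vertical axes, percent) in nuclear, cytoplasmic and total RNA (horizontal axis), with TAOK2 siRNA left of control siRNA. Points are single libraries, circles batch 1 and squares batch 2, and bars are means. Retained-intron shares of 12.4% and 12.6% with TAOK2 siRNA lie under 15.4% and 15.7% with control siRNA in the nucleus.

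Single transcripts showed the same order. No transcript passed the limma test of the shift (0 of 53228, 0%; smallest adjusted p 0.320; 1745 at an unadjusted p under 0.05). In the simulated data this test found 0% of 50 transcripts shifted by each of -2, -1, 1 and 2, so the count of 0 says little about transcripts. The median shift of the 9790 retained-intron transcripts was -0.30 in batch 1 and -0.26 in batch 2, and 5167 of them (52.8%) were lower in both batches, against 32.5% of all transcripts. The 28726 protein-coding transcripts had medians of 0.08 and 0.07, with 22.5% lower in both batches. Processed transcripts (-0.19 and -0.20), transcripts annotated for nonsense-mediated decay (-0.10 and -0.11), processed pseudogenes (-0.20 and -0.14) and unprocessed pseudogenes (-0.32 and -0.31) lay below 0 in both batches. The median shift of all transcripts was -0.06 and -0.02. Among transcripts averaging 5 TPM or more the nonsense-mediated decay class was at 0.10 and -0.04, so its direction did not hold there. Processed transcripts stood at -0.05 and -0.12 and unprocessed pseudogenes at -0.07 and -0.27 in that set.

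**Figure D3:**
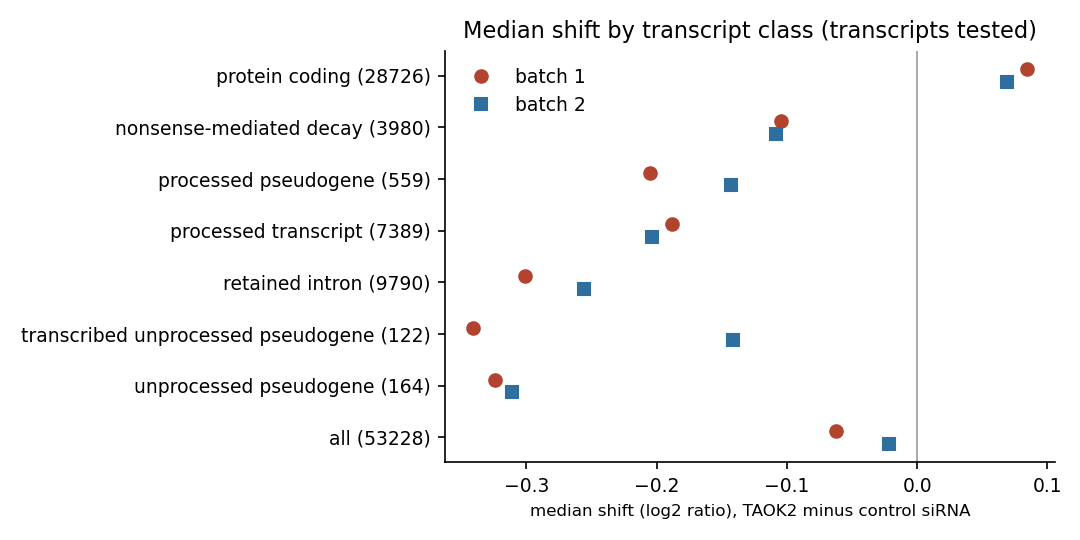
Median shift of the log2 nuclear to cytoplasmic ratio (horizontal axis) for each transcript class (rows, with the number of transcripts tested), in batch 1 (circles) and batch 2 (squares). Retained-intron transcripts sit at -0.30 and -0.26 and protein-coding transcripts at 0.08 and 0.07.

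Classes with a low shift were also the more nuclear ones in control cells, with a median control ratio of 2.43 for retained-intron and 0.28 for protein-coding transcripts. At a like control ratio above 2 the classes were close among transcripts averaging 1 TPM or more. With a ratio of 3 to 4 in the other batch, 2060 retained-intron transcripts had a median shift of -0.39 in batch 1 and 2050 of -0.32 in batch 2, and 808 and 745 protein-coding transcripts had -0.42 and -0.31. With a ratio under 0, retained-intron transcripts stood at 0.14 and 0.11 and protein-coding transcripts at 0.23 and 0.15. Between 0 and 1 they differed more, at 0 and -0.000233 for retained-intron and 0.13 and 0.097 for protein-coding transcripts. Between 1 and 2 they stood at -0.23 and -0.21 for retained-intron and -0.06 and -0.01 for protein-coding transcripts. Among transcripts of at least 5 TPM in this last range the values were 0.26 and 0 against 0.16 and 0.05. There the order of the classes differed between batches.

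Within genes the intron-retaining share of nuclear RNA was lower after knockdown in most genes. In 2388 protein-coding genes with at least 5 TPM of each class, the median share of retained-intron transcripts in nuclear RNA was 35.0% and 37.2% with TAOK2 siRNA, against 40.3% and 43.1% with control siRNA. The median gene differed by -4.49 percentage points in batch 1 and -4.59 in batch 2. In both batches 1768 genes (74.0%) were lower and 149 (6.24%) were higher. In total RNA the median differences were 0.0376 and 0.467 points, with 548 genes (22.9%) lower and 774 (32.4%) higher in both batches. In the cytoplasm they were -0.223 and -0.0307 points. The genes are not independent of one another and no test was made on these counts.

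The 5 genes that follow, with intron-retaining transcripts that are almost wholly nuclear, illustrate the lower nuclear level of the class. These transcripts held at most 1.63 TPM in any cytoplasmic library, near or under the 1 TPM added before the log. Their shifts therefore reflect mostly the nuclear level and do not show a changed ratio. The genes were chosen with their values known. The ends of their retained introns are shown because the intron is what separates these transcripts from the spliced mRNA. Each sequence is from GENCODE 29 on GRCh38, read along the transcript, with 10 exon bases and 20 intron bases on either side of the intron boundary, and the first or last pair of intron bases in capitals. CCNL1-215 and CLK1-210 keep 2 introns each, of which the one nearer the start of the gene is shown.
OGT-210, chrX:71544636-71547906, forward strand, start: agaagccaagGTaggtgtttgatagaacac
OGT-210, same intron, end: tttcattaacccctcctaAGgcatgttatt
RBM39-223, chr20:35739018-35740823, reverse strand, start: ttacaagaagGTgagaaaaaacatgtcggt
RBM39-223, same intron, end: cttctatcaaccctgcttAGgatgagaaca
CCNL1-215, chr3:157152242-157153035, reverse strand, start: tcctcataagGTgagttgtagagtacagaa
CCNL1-215, same intron, end: ttttttcccttgtccttcAGatcattgtta
CLK1-210, chr2:200860216-200861237, reverse strand, start: ttcacatgggGTatgaacgtttttaaaaca
CLK1-210, same intron, end: cgcccacttgacgtttccAGaagagtcacc
LUC7L-217, chr16:227337-228332, reverse strand, start: tcatcgagccGTgagtcacaaccaatttct
LUC7L-217, same intron, end: aaaccacaaatgaatttcAGgagacgaaac

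All of these introns begin with GT and end with AG. So did 93.3% of the 3950 coding introns that lie whole within an exon of a tested retained-intron transcript, found in 2737 of the 9790. The other retained-intron transcripts keep part of an intron or none that a coding transcript removes, and their median shifts were -0.28 and -0.27, against -0.34 and -0.23 for those with a whole intron. Intron length made little difference in batch 1, where the 906 transcripts with 1 such intron under 200 bases had a median shift of -0.33 and the 202 with 1 of at least 1000 bases had -0.34. In batch 2 the medians were -0.19 and -0.30.

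OGT-210, from the gene of the enzyme that adds N-acetylglucosamine to proteins, held 72.1 and 66.0 TPM in TAOK2 siRNA nuclei against 208.1 and 182 TPM in control nuclei, and at most 1.22 TPM in any cytoplasmic library. Its shift was -0.87 in batch 1 and -0.998 in batch 2. The cytoplasmic level of OGT-210 was lower too, at 0.419 and 0.465 TPM with TAOK2 siRNA and 1.22 and 1.01 TPM with control siRNA. These levels lie near or under the 1 TPM added before the log, so this shift does not show a changed ratio. RBM39-223, from a splicing factor gene, held 49.3 and 65.4 TPM in TAOK2 siRNA nuclei against 112.5 and 134.5 TPM in control nuclei. CCNL1-215, from the gene of cyclin L1, held 21.1 and 36.9 TPM in TAOK2 siRNA nuclei against 40.0 and 69.8 TPM in control nuclei. LUC7L-217, from the gene of a protein of the U1 small nuclear ribonucleoprotein, held 35.9 and 43.5 TPM in TAOK2 siRNA nuclei against 59.1 and 69.2 TPM in control nuclei. In these 4 transcripts the nuclear groups did not overlap. They were chosen with their values known, and the share of all transcripts without overlap is not given here, so the count shows nothing unusual by itself. CLK1-210, from the gene of a kinase that phosphorylates SR proteins, held 17.3 and 26.7 TPM in TAOK2 siRNA nuclei against 25.9 and 31.9 TPM in control nuclei, and its nuclear groups overlapped.

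Summed over all their transcripts, the genes were lower in the nucleus as well, short of the test. OGT held 247 and 233 TPM in TAOK2 siRNA nuclei against 573 and 551 TPM in control nuclei (nuclear change -1.22 ± 0.17, adjusted p = 0.0722 by limma), and 10.2 and 15.4 TPM in TAOK2 siRNA cytoplasm against 21.6 and 21.5 TPM in control cytoplasm, for a shift of -0.49 ± 0.25. CCNL1 held 197 and 184 TPM in TAOK2 siRNA nuclei against 326 and 302 TPM in control nuclei, with a shift of -0.84 ± 0.25. RBM39 held 839 and 872 TPM in TAOK2 siRNA nuclei against 1252 and 1356 TPM in control nuclei, with a shift of -0.70 ± 0.24. The share of RBM39 in retained-intron transcripts was 78.2% and 82.1% in TAOK2 siRNA nuclei and 90.9% and 94.3% in control nuclei. For OGT it was 36.2% and 37.8% in TAOK2 siRNA nuclei and 45.9% and 45.3% in control nuclei.

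Gene lists lay on both sides of 0, and no member of any list passed the adjusted test of the shift. The 23 SR proteins and relatives, which select splice sites, had median shifts of -0.11 in batch 1 and -0.43 in batch 2, with 16 lower and 2 higher in both batches, against 27.7% and 29.1% of all genes. Their median control ratio was 1.90, and the tenth of all genes with such a ratio had median shifts of -0.22 in batch 1 and -0.15 in batch 2. SRSF11 held 367 and 466 TPM in TAOK2 siRNA nuclei against 585 and 775 TPM in control nuclei, and 51.2 and 52.6 TPM in TAOK2 siRNA cytoplasm against 52.5 and 48.3 TPM in control cytoplasm (-0.75 ± 0.27). Its nuclear groups were apart and its cytoplasmic groups overlapped. LUC7L3 (-0.94 ± 0.49), LUC7L (-0.76 ± 0.44) and SRSF1 (-0.49 ± 0.26) were lower in both batches too. Detained introns are spliced late in polyadenylated nuclear RNA. Of 30 genes known for them, 19 were lower and 5 higher in both batches, against 27.7% and 29.1% of all genes. Their medians were -0.18 and -0.22, with a median control ratio of 3.09. The tenth of all genes with such a ratio had median shifts of -0.38 in batch 1 and -0.33 in batch 2, further below 0 than this list.

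Zinc finger genes of chromosome 19, transcriptional repressors for the most part, had medians of -0.10 and -0.18, with 43 of 106 lower and 15 higher in both batches. ZNF567 held 23.9 and 23.8 TPM in TAOK2 siRNA nuclei against 39.7 and 42.8 TPM in control nuclei, with no such gap in cytoplasm, where it held 11.3 and 13.4 TPM with TAOK2 siRNA and 11.1 and 14.2 TPM with control siRNA (-0.73 ± 0.27). Speckle scaffold genes had medians of 0.08 in batch 1 and -0.22 in batch 2, and SR protein kinases 0.02 and -0.04, so the batches differed in sign for both.

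On the other side, hnRNP genes, whose products bind nascent transcripts, had medians of 0.22 and 0.17, with 25 of 33 higher and 3 lower in both batches. HNRNPF held 299 and 285 TPM in TAOK2 siRNA nuclei against 233 and 223 TPM in control nuclei, and 190 and 194 TPM in TAOK2 siRNA cytoplasm against 187 and 196 TPM in control cytoplasm (0.35 ± 0.16). HNRNPR (0.40 ± 0.20) and HNRNPH2 (0.44 ± 0.27) were higher in both batches. Core spliceosome genes had medians of 0.25 and 0.15, with 24 of 46 higher and 3 lower, SNRPG and SYF2 among the higher ones (0.47 ± 0.24 and 0.37 ± 0.24). Both lists had median control ratios near 1, at 0.94 and 1.01.

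Lists of mRNAs for ribosomes, mitochondria and secretion lay above 0. Cytosolic ribosomal protein genes had medians of 0.12 and 0.24, with 40 of 78 higher and 3 lower, nuclear-encoded genes of the respiratory chain 0.18 and 0.21, with 35 of 75 higher and 6 lower, and genes of secreted and endoplasmic reticulum proteins 0.19 and 0.27, with 24 of 42 higher and 1 lower. ATP5F1B, a subunit of ATP synthase, held 1175 and 1055 TPM in TAOK2 siRNA nuclei against 876 and 816 TPM in control nuclei, and 614 and 728 TPM in TAOK2 siRNA cytoplasm against 710.1 and 709.96 TPM in control cytoplasm (0.48 ± 0.20). Its nuclear groups were apart. CANX, the chaperone calnexin, was the 1 lower member of the last list (-1.01 ± 0.52). It held 164 and 81.0 TPM in TAOK2 siRNA cytoplasm and 52.8 and 48.0 TPM in control cytoplasm. In total RNA it held 269 and 182 TPM with TAOK2 siRNA and 266 and 170 TPM with control siRNA, above both fractions, so its level is uncertain. All 4 housekeeping genes, GAPDH, ACTB, TUBA1B and EEF1A1, were higher in both batches, with shifts of 0.09 to 0.46.

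**Figure D4:**
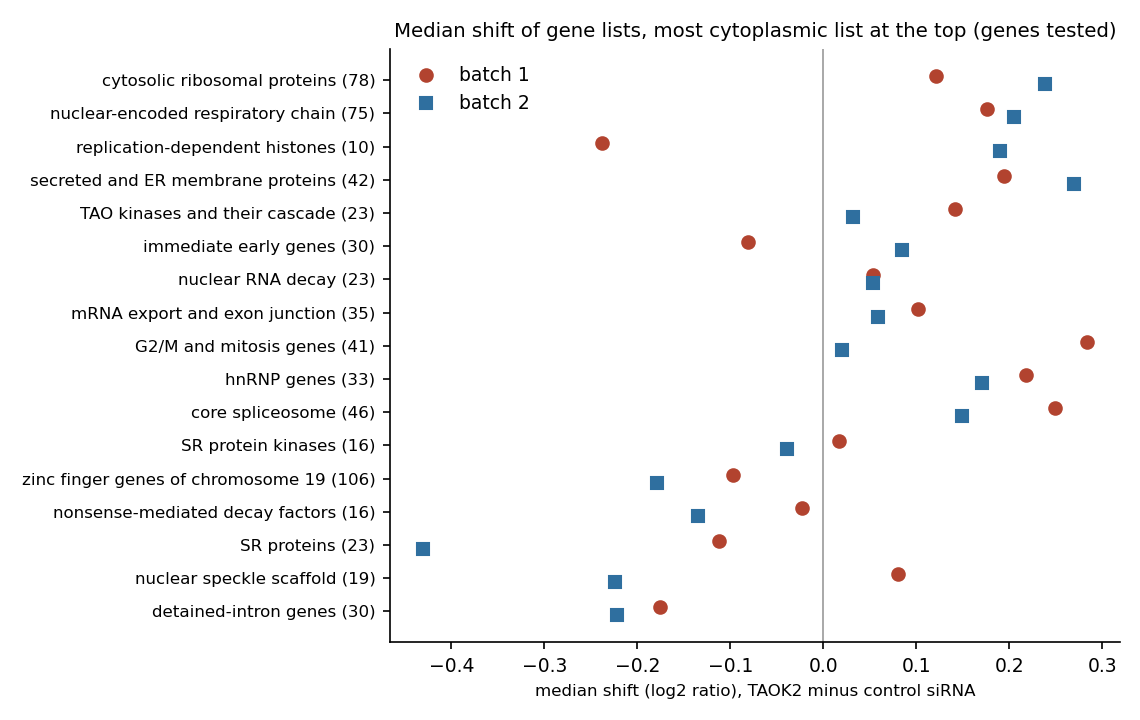
Median shift of the log2 nuclear to cytoplasmic ratio (horizontal axis) for gene lists with at least 10 genes tested (rows, number tested in brackets), from the most cytoplasmic list in control cells at the top to the most nuclear at the bottom. Circles are batch 1 and squares batch 2. Ribosomal protein genes lie at 0.12 and 0.24 and detained-intron genes at -0.18 and -0.22.

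Genes of the TAO kinase cascade (8 of 23 higher and 3 lower), mRNA export (16 of 35 and 8), nuclear RNA decay (10 of 23 and 8), nonsense-mediated decay factors (4 of 16 and 5), immediate early genes (9 of 30 and 8) and replication-dependent histones (3 of 10 and 1) were spread over both directions. Genes of mitosis had 17 of 41 higher and 5 lower, with medians of 0.28 in batch 1 and 0.02 in batch 2. Their levels were higher after knockdown in both fractions, by a median of 0.70 in the nucleus and 0.56 in the cytoplasm, and TPX2, a spindle assembly factor, held 56.8 and 62.0 TPM in TAOK2 siRNA nuclei against 29.2 and 31.0 TPM in control nuclei.

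Gene length did not relate to the shift in one way. Across 13118 protein-coding genes its Spearman rho with the shift was 0.262 in batch 1 and -0.143 in batch 2. Genes under 10 kb had a median shift of -0.15 in batch 1 and 0.11 in batch 2, and genes of 200 kb or more had 0.18 and -0.01. Exon count, taken from the most abundant transcript, had rho of 0.193 and 0.0169. Genes with 20 or more exons stood at 0.17 and 0.01, and genes with 2 to 4 exons at -0.08 and -0.01. The length of that transcript had rho of 0.258 and -0.0188.

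**Figure D5:**
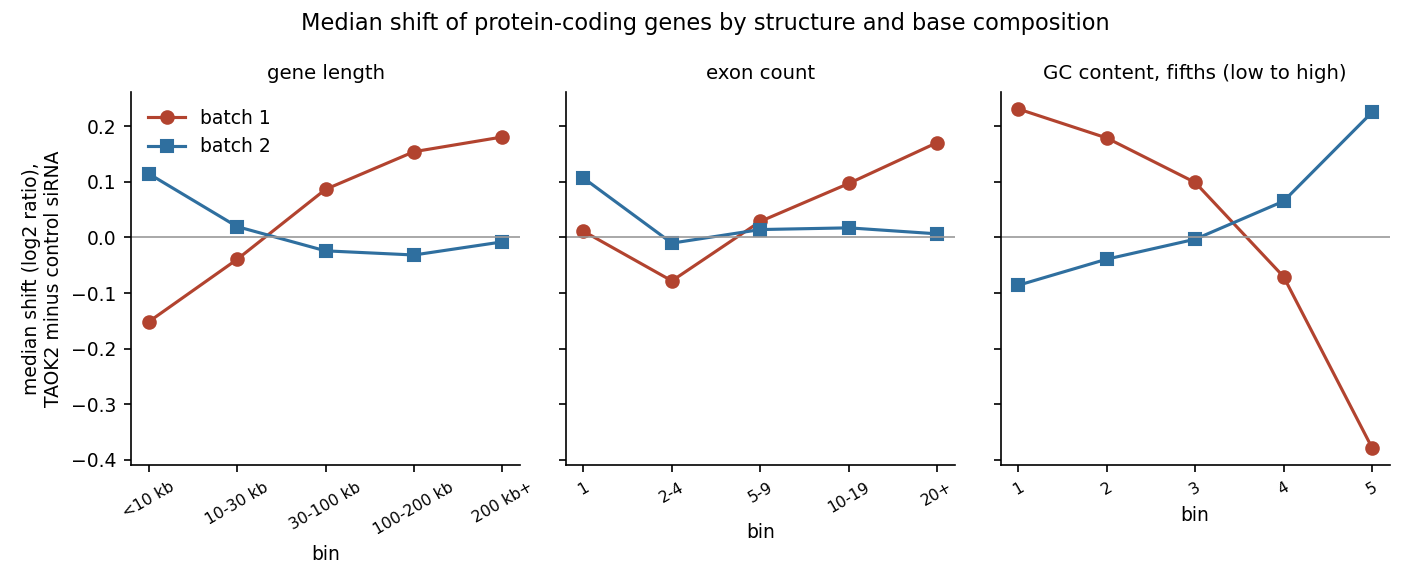
Median shift of the log2 nuclear to cytoplasmic ratio (vertical axis) of protein-coding genes by gene length, exon count and GC content of the most abundant transcript (horizontal axes), in batch 1 (circles) and batch 2 (squares). The lines of the 2 batches cross for length and for GC, where the group richest in GC stands at -0.38 in batch 1 and 0.23 in batch 2.

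GC content of the most abundant transcript differed between the batches in the same way and further. Its rho with the shift was -0.491 in batch 1 and 0.291 in batch 2, and the 2622 genes richest in GC had a median shift of -0.38 in batch 1 and 0.23 in batch 2. The cytoplasmic libraries carried most of it, since TAOK2 siRNA minus control siRNA related to GC with rho = 0.470 in batch 1 and -0.221 in batch 2 in the cytoplasm, and with -0.0477 and 0.0957 in the nucleus. The level in batch 1 minus that in batch 2 was higher in genes richer in GC in all 4 groups, with rho of 0.602 to 0.771. Long genes were poor in GC (rho = -0.386), and within the group of lowest GC the relation to gene length was 0.0676 in batch 1 and 0.00201 in batch 2. In the groups of middle and highest GC it was 0.111 and 0.137 in batch 1 and -0.0288 and -0.100 in batch 2, so the opposite signs remained there. The part of GC in the length relation was not tested further. The relation to the control ratio held within each of 3 groups of GC, at -0.358, -0.372 and -0.258 in batch 1 and -0.282, -0.359 and -0.314 in batch 2.

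Some single transcripts stood out from their gene, again short of the adjusted test. SNX1-213, a coding transcript of a sorting nexin gene, held 16.7 and 17.6 TPM in TAOK2 siRNA nuclei against 2.28 and 2.66 TPM in control nuclei, and 15.0 and 15.2 TPM in TAOK2 siRNA cytoplasm against 15.4 and 13.8 TPM in control cytoplasm (2.35 ± 0.25, adjusted p = 0.363 by limma). XPO1-219, a retained-intron transcript of the export receptor gene, held 23.8 and 28.8 TPM in TAOK2 siRNA nuclei against 17.3 and 28.5 TPM in control nuclei. It was listed at 0 and 1.86 TPM in TAOK2 siRNA cytoplasm and at 15.1 and 18.9 TPM in control cytoplasm (3.63 ± 0.69). In total RNA it was at most 0.62 TPM in all 4 libraries, out of keeping with both fractions, so its level is uncertain. RBBP7-201, a retained-intron transcript of a histone chaperone gene, was listed at 0 in both TAOK2 siRNA cytoplasm libraries and at 18.1 and 12.04 TPM in control cytoplasm. It held 95.6 and 62.3 TPM in TAOK2 siRNA nuclei and 83.9 and 61.0 TPM in control nuclei. In total RNA it held 2.64 and 9.36 TPM with TAOK2 siRNA, between its fractions, and 2.04 and 2.71 TPM with control siRNA, below both. Its level is therefore uncertain too. As listed, XPO1-219 and RBBP7-201 ran against the direction of their class. DYNC1LI2-204, a retained-intron transcript of a dynein chain gene, held 15.9 and 16.3 TPM in TAOK2 siRNA nuclei against 37.6 and 45.5 TPM in control nuclei (-1.81 ± 0.32). An estimated TPM of 0 can come from how reads are divided among similar transcripts.

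Transcript usage, the log2 odds that RNA of a gene is a given transcript, gave 0 of 29430 transcripts (0%) past the limma test of the shift, with a smallest adjusted p of 0.9997 and 838 at an unadjusted p under 0.05. Of simulated usage shifts of -2, -1, 1 and 2 it also found 0%. Those shifts were placed only in transcripts that held most of the RNA of their gene, again with no batch difference. FOXM1-202, a coding transcript of a mitotic transcription factor gene, made up 21.7% and 24.8% of its gene in TAOK2 siRNA nuclei against 2.28% and 0% in control nuclei. Its cytoplasmic share was 54.9% and 51.8% with TAOK2 siRNA and 53.0% and 50.7% with control siRNA. VKORC1L1-202, from a vitamin K epoxide reductase gene, made up 28.3% and 30.3% in TAOK2 siRNA cytoplasm against 12.3% and 8.76% in control cytoplasm, with nuclear shares of 2.57% and 3.68% against 3.56% and 4.04%. Its share of total RNA was 34.7% and 35.5% with TAOK2 siRNA and 22.9% and 28.0% with control siRNA, above both fractions, so its level is uncertain. MTREX-203, a processed transcript of the helicase gene of the nuclear exosome, was listed at 0 in both TAOK2 siRNA nuclear libraries and made up 7.10% and 9.69% in control nuclei. In total RNA its share was 24.0% and 18.3% with TAOK2 siRNA and 27.9% and 24.5% with control siRNA, higher than in any fraction, so its level is uncertain as well.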

How the data were processed

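Polyadenylated RNA of A549 cells was measured in nuclear, cytoplasmic and total fractions. The authors deposited TPM values per transcript, computed with kallisto on GRCh38.p14 per the submitters' processing notes, with no version given in the sources used here. Of 188753 transcripts, 169797 (90.0%) matched GENCODE 29 identifiers. TPM was rescaled without 13 mitochondrially encoded genes and summed to genes. Features with a mean of at least 1 TPM were tested with limma 3.58.1 (R 4.3.3) on log2(TPM + 1). The fit used group means over 12 libraries, trend and robust moderation and Benjamini-Hochberg adjustment at 0.05. The added 1 TPM understates changes of low levels within a fraction. It does not only understate the shift. Where a nuclear RNA falls in both fractions from a cytoplasmic level near or under 1 TPM, it draws the shift below 0. Usage was log2 odds with 0.5 TPM added, in genes of at least 10 TPM and for shares of at least 5%. Transcript errors from read assignment are not in the tests. The labels give the batches, and same-batch residuals correlated at 0.522 to 0.820, so the batches pair the libraries. The main fit has no batch term, so its standard errors and p-values include differences between batches. Nothing says that libraries came from separate cultures, so p-values measure only the spread between these samples. Named genes are the 12 highest and 12 lowest (8 and 8 for transcripts and usage) by unadjusted p, where none passed, with at least 5 TPM, 1 sign in both batches and no clone name, plus the TAO kinases and up to 4 members per list. Members, 24 lists and rules were chosen with earlier results of these data known. Small nucleolar RNA host genes had 1 of 27 members measured, and the nuclear retained noncoding RNAs 0 of 8. The model was tested on simulated data. Libraries of total RNA enter for the shared spread. Alternatives left out single libraries or altered the block, pseudocount, filter and scaling. Some items are not reported here.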

Additional observations from a re-analysis of the deposited data

How the results depend on the processing

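The batch labels pair the libraries. With batch as a replicate block the shift gave 0 genes, 0 transcripts and 0 usage changes, and the counts in single fractions were 1270 nuclear and 448 cytoplasmic genes, against 7 and 11 without it. With a replicate block within each fraction they were 1 gene for the shift, 1977 nuclear and 799 cytoplasmic genes. The other settings for the shift gave 0 genes except without a filter on low values (13, chiefly pseudogenes and unnamed loci), and 0 transcripts except at a pseudocount of 5 TPM (1), without a filter (76) and without trend and robust settings (1). Leaving out 1 library at a time gave 0 to 1 genes, 0 to 11 transcripts and 0 to 9 usage changes, with 11 and 9 without the cytoplasmic TAOK2 siRNA library of batch 2. Nuclear counts were 0 to 6 with 1 library left out, 0 with only the 8 libraries, 2 with TPM as deposited, 4 and 251 at pseudocounts of 0.1 and 5 TPM, 258 without a filter and 17 without trend and robust settings. Cytoplasmic counts were 0 to 1 with 1 library left out, 0 with only the 8 libraries, with TPM as deposited, with centred libraries and without trend and robust settings, 1 at a pseudocount of 5 TPM and 4 without a filter. The cause was not tested.

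Averaged over both batches, the most nuclear of 10 groups of genes had a median shift of -0.36 and retained-intron and protein-coding transcripts -0.28 and 0.08, with rho = -0.32 for the control ratio. These were -0.26 (rho), -0.18 and 0.14 (classes) at a pseudocount of 0.1 TPM, -0.27 (most nuclear), -0.19 and 0.0299 at 5 TPM, -0.21 and 0.19 for transcripts of at least 5 TPM, -0.23 and 0.0923 with TPM as deposited, and -0.43 and rho = -0.39 with the control ratio of the same batch, which shares libraries with the shift. Averaged over batches, rho was 0.0591 for gene length, 0.119 for transcript length and -0.100 for GC, and batch 2 alone reversed these to -0.143, -0.0188 and 0.291. TAOK2 and the 24 genes named for the lowest unadjusted p, which were chosen for 1 sign in both batches, kept the direction of their shift under all 575 combinations of gene and setting. List members were not rerun. Depth is unknown, and with 2 libraries a group no permutation of single values can fall below p = 0.333.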
